A study of Mus musculus with 8 samples.

Results

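Wnt ligands, their receptors and the secreted proteins that modulate them were compared between the small intestine of control and Rfx6-deleted mouse embryos. The set held every gene on the array named as a Wnt, a Frizzled (Fzd), Lrp5 or Lrp6, Porcn or a Dickkopf (Dkk). It also held every gene named as a secreted Frizzled-related protein (Sfrp), Wif1 or an R-spondin (Rspo). Genes were chosen by name, with earlier results of these data known. This gave 45 of the 36161 genes of the array: 19 Wnt ligands, 12 receptors, Porcn, 4 R-spondins, 4 Dkk genes, and 5 genes of proteins that bind Wnt ligands (Sfrp1, Sfrp2, Sfrp4, Sfrp5 and Wif1). Where a gene had several probes, the brightest was used.

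The study measured total RNA of the whole small intestine at E18.5, shortly before birth, on 8 single-colour Agilent arrays, 4 of controls and 4 of mutants. Rfx6 is a transcription factor gene that acts in endocrine cells, the hormone-secreting cells scattered through the gut lining. The mutants were Rfx6 fl/fl Ngn3-cre: both Rfx6 alleles were floxed, so that Cre recombinase could delete them, and the Cre transgene was that of the endocrine progenitor gene Ngn3. Control replicates 1, 3 and 4 were Rfx6 fl/+, with 1 floxed allele, and control replicate 2 was Rfx6 fl/fl, with 2. Cre is named for the mutants alone, so effects of Cre and of the deletion cannot be told apart. For 3 of the mutants the sample description gives the name of another Rfx gene where the title gives Rfx6, and the title was followed. The labels call the deletion specific to endocrine cells.

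Wnt proteins are lipid-modified by Porcn, secreted, and bound on receiving cells by a Frizzled receptor together with Lrp5 or Lrp6, which stabilises beta-catenin and switches on target genes. R-spondins raise the signal by protecting Frizzled receptors from removal, while Dkk proteins act on Lrp5 and Lrp6, and Sfrp proteins and Wif1 bind the Wnt ligands. In the intestine the pathway keeps progenitor cells dividing at the base of the epithelium, and much of the ligand and R-spondin supply comes from the underlying mesenchyme.

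All levels below are log2 values with the 75th percentile of the same array set to 0, and a difference is mutant minus control. Levels were compared between arrays for the same probe, never between probes. The 75th percentile of intensity was 788 to 1027, and the share of probes well above background was 59.7% to 69.9%. Across genes, mutant replicate 1 correlated at 0.9752 to 0.9803 with the other arrays, which correlated at 0.990 to 0.995 among themselves. The probe for Rfx6 stood at -3.32, -3.20, -3.48 and -2.93 in control replicates 1 to 4 and at -5.52, -3.37, -3.02 and -3.02 in mutant replicates 1 to 4. It was low in mutant replicate 1 alone (difference -0.50, SE 0.516, limma adjusted p = 0.824; 0.0986 without that array), and whether it lies in the deleted part is not stated. Of the endocrine cell markers, 9 of 12 passed as lower, against 0.0552% of all genes. The others did not: Chga (-0.27) and Chgb (0.026) overlapped between groups. Neurog3 was higher by 0.76 with the groups apart (limma adjusted p = 0.0552). The mean level of the 12 was 2.25 to 2.40 in controls and -0.37 to -0.29 in mutants. Gip and Isl1, both among the 9, were well above background on only 5 and 4 of the 8 arrays. For Isl1 these were the 4 controls. It was tested only through the group where it was high, so its call adds no support. The mutant values of Gip and Isl1, -6.41 to -5.05 and -6.99 to -6.30, lower the mean level of the 12 and are near background. In whole intestine, fewer cells of a type and less RNA per cell cannot be told apart.

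None of the Wnt pathway members passed the test. Of the 45 genes, 34 were tested because their probe was well above background on at least 4 of the 8 arrays whatever the group, and 29 of these were above background on all 8. At a limma adjusted p of 0.05, 0 of the 34 were called, beside 15 genes (0.0592%) of the 25354 tested, of which 0.0552% were lower and 0.00394% higher. At an unadjusted limma p under 0.05 there was 1 member, Wnt6, which was higher, against 5.33% of all genes (3.18% higher and 2.15% lower), and at least 2-fold there was none, against 0.702%. The groups did not overlap for 0 of the 34 members and for 4.67% of all genes. In all, 20 members were higher and 14 lower in mutants (58.8% higher, against 57.1% of all genes), with a median difference of 0.0792 beside 0.0305 over all genes.

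The precision bounds what could have been missed in the tested members, each taken alone, in RNA of the whole intestine. The 11 members not tested have no such bound. A change within endocrine cells alone could not be read apart from the other cells. Standard errors of the members ran from 0.101 to 0.499 with a median of 0.156, beside 0.136 over all genes. For 32 of the 34 members the 95% interval of the difference lay inside a 2-fold change in either direction. The intervals of Wnt2b and Dkk2 reached past it. All but Wnt2b differed by less than 1.5-fold.

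**Figure D1:**
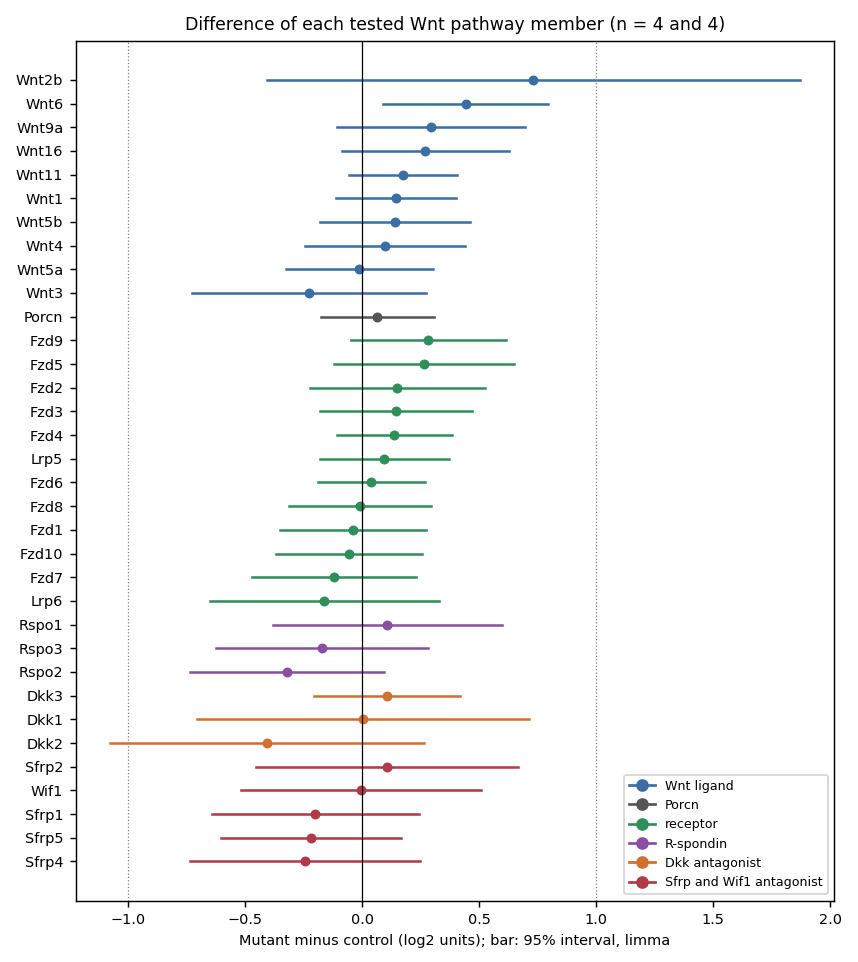
Difference between mutant and control for each of the 34 tested members, grouped by role, in log2 units, with 95% intervals from limma (n = 4 and 4) and dotted lines at 2-fold in either direction. The interval of Wnt6 alone lies clear of 0, and those of Wnt2b and Dkk2 reach past a 2-fold change.

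Wnt ligands were the role in which the most members leaned higher, 8 of 10 tested, with differences from -0.23 to 0.73 and a median of 0.159. Wnt6, a ligand made by epithelia, came closest to the threshold (probe on chromosome 1, 74831461 to 74831520, mm9). Wnt6 stood at -4.28, -3.71, -4.31 and -4.27 in control replicates 1 to 4 and at -3.72, -3.53, -3.66 and -3.90 in mutant replicates 1 to 4. Control replicate 2, the control with 2 floxed alleles, lay among the mutants, and the other 3 controls lay below all 4 mutants. The difference was 0.44 (SE 0.155, limma adjusted p = 0.821), and Wnt6 ranked 560th among all genes by p. Within each row of the slide, which held 2 controls and 2 mutants, it was 0.37 and 0.51. Without control replicate 2 it was 0.58, with the groups apart and a limma adjusted p of 0.503. With normexp background correction it was 0.255, and in the authors' deposited values 0.26.

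Wnt2b, a ligand of the gut mesenchyme that supports epithelial stem cells, had the largest difference of any member (chromosome 3, 104748831 to 104748890, mm9). Its values were -4.75, -5.50, -5.23 and -5.28 in controls 1 to 4 and -2.77, -5.18, -4.80 and -5.09 in mutants 1 to 4. Mutant replicate 1 stood apart from the other 7 arrays, which overlapped, and the probe was not well above background in 1 control. The difference was 0.73 (95% interval -0.41 to 1.87, SE 0.499, limma adjusted p = 0.821), and 0.17 without mutant replicate 1. It was 0.32 with normexp, 0.33 in the authors' deposited values and 0.25 with array weights. That array was the one that correlated least with the rest.

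Among the other ligands, Wnt9a stood at -1.38, -1.39, -1.96 and -1.41 in controls 1 to 4 and at -0.89, -1.49, -1.20 and -1.38 in mutants 1 to 4. Wnt16 stood at -4.45, -3.98, -4.10 and -4.49 in controls and at -4.20, -3.70, -4.10 and -3.94 in mutants. Wnt11, a ligand of beta-catenin-independent signalling, stood at -3.63, -3.40, -3.73 and -3.49 in controls and at -3.38, -3.44, -3.27 and -3.46 in mutants. In each of these 3 genes the mutants reached a higher value than any control, yet at least 1 control lay within the mutant range. Wnt5a, the mesenchymal ligand needed for the gut to lengthen, ran from -0.21 to 0.25 in controls and from -0.20 to 0.22 in mutants. Wnt5b ran from -0.84 to -0.60 in controls and stood at -0.20, -0.69, -0.78 and -0.69 in mutants 1 to 4, so mutant replicate 1 alone left the control range. Wnt4, also a ligand of beta-catenin-independent signalling, ran from -2.92 to -2.55 in controls and from -2.87 to -2.29 in mutants. Wnt3, a ligand that Paneth cells make after birth, leaned the other way, at -4.67, -5.74, -4.87 and -4.88 in controls and -5.44, -5.16, -5.30 and -5.18 in mutants. Control replicate 2 was the lowest of the 8 for Wnt3, and the other 3 controls were the highest.

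The Wnt16 probe of 60 bases lies at chr6:22247804-22247863 (mm9, plus strand) and covers a conserved part of the coding sequence of Wnt genes. The capitals mark the codons around the serine to which Porcn attaches the lipid.
Wnt16 probe: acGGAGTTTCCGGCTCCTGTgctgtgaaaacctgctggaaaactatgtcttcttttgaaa

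Of the 19 ligands, 9 were not tested because fewer than 4 arrays were well above background: Wnt2, Wnt3a, Wnt7a, Wnt7b, Wnt8a, Wnt8b, Wnt9b, Wnt10a and Wnt10b. Neither Wnt3a nor Wnt8b had a probe well above background on any of the 8 arrays. Wnt7a and Wnt7b were above it on control replicate 1 alone, with levels from -7.81 to -5.74 and from -7.19 to -5.39 over all arrays. Wnt10b was above it on control replicate 1 and mutant replicate 2, Wnt8a on control replicates 1 and 2 and mutant replicate 2, and Wnt9b on control replicate 2 and mutant replicates 2 and 4. For these 5 genes the highest and lowest arrays lay within 2.23 of each other and no group stood apart.

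Wnt10a and Wnt2 were not well above background on most arrays and were bright on a few. Wnt10a had processed intensities of 238.3 in control replicate 2, 300.4 in control replicate 3 and 250.1 in mutant replicate 4, and 8.16 to 16.6 in the other 5 arrays. On the log2 scale this was -2.10, -1.74 and -2.04 against -6.78 to -5.88, with no array between. Control and mutant arrays were on both sides of that gap. The pixels of the bright Wnt10a spots had coefficients of variation of 12.8% to 20%, against 21.9% to 23.9% in the other arrays. Wnt2, a mesenchymal ligand, reached an intensity of 198.2 in mutant replicate 1 and 2.74 to 5.50 elsewhere, or -1.99 against -8.32 to -7.45. The pixels of that Wnt2 spot varied by 59.9%, against 20.5% to 27.2% in the other arrays, and each probe of the set had 1 spot per array. The part of spot quality in these values was not tested.

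**Figure D2:**
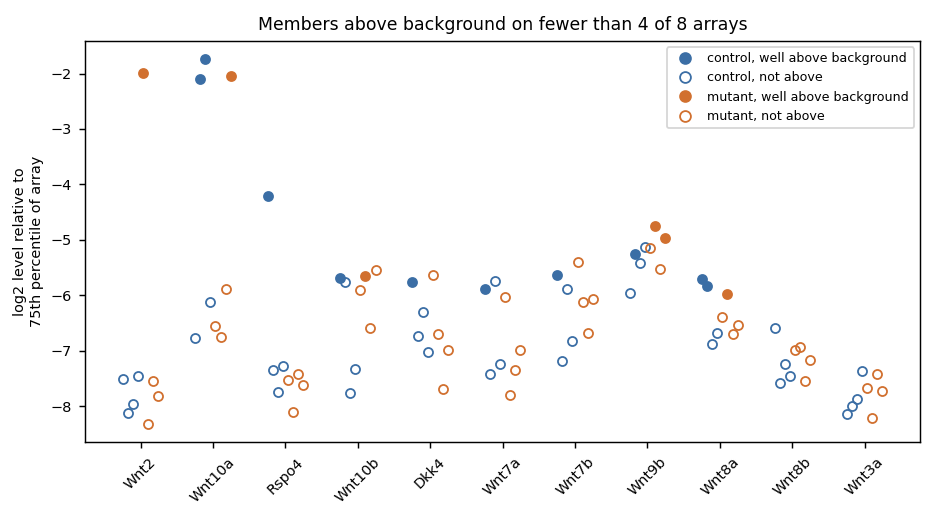
Level of the 11 members that were well above background on fewer than 4 of 8 arrays, on a log2 scale where 0 is that array's 75th percentile. Filled points are well above background, and the bright arrays of Wnt10a (2 controls and 1 mutant), Wnt2 (mutant replicate 1) and Rspo4 (control replicate 1) stand clear of the rest.

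Several Wnt genes lie next to one another in the genome, and the number of arrays on which each was detected is given here without comparing their levels. By the RefSeq gene order, no protein-coding gene lies between Wnt6 and Wnt10a, Wnt10b and Wnt1, Wnt3a and Wnt9a, or Wnt9b and Wnt3. The Wnt6 and Wnt10a probes lie 19172 bases apart on chromosome 1 (mm9) and were well above background on 8 and 3 arrays. Wnt10b and Wnt1 probes lie 21992 bases apart on chromosome 15 and were so on 2 and 8 arrays, while the other probe of Wnt1 was so on 0. For Wnt3a and Wnt9a, 85397 bases apart on chromosome 11, the counts were 0 and 8. For Wnt9b and Wnt3, 90156 bases apart on the same chromosome, they were 3 and 7.

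The Wnt1 value depended on which probe was read. Wnt1 has a pair of probes, and the brighter, used here, was well above background on all 8 arrays, with intensities of 940 to 1061 (chromosome 15, 98624201 to 98624260, mm9). The dimmer, at chr15:98623276-98623335 and 925 bases nearer the start of the transcript, was well above background on no array, with intensities of 3.35 to 6.44. The dimmer probe ends at the stop codon, in capitals.
Wnt1 dimmer probe: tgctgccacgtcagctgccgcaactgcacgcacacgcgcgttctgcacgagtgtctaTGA
The brighter probe lies beyond the stop codon and holds the polyadenylation signal letters AATAAA, which end 12 bases before its end. Its levels were -0.02, 0.02, 0.07 and -0.04 in controls 1 to 4 and 0.43, 0.14, 0.09 and -0.04 in mutants 1 to 4, so the groups overlapped. Which of the probes follows Wnt1 messenger RNA was not tested.

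Porcn, the acyltransferase without which Wnt ligands are not secreted, had the smallest difference of the members given with a test (chromosome X, 7770977 to 7771036, mm9). It stood at -0.79, -0.72, -0.95 and -0.80 in controls 1 to 4 and at -0.71, -0.95, -0.57 and -0.77 in mutants 1 to 4. Mutant replicate 3 was the highest and control replicate 3 the lowest of overlapping groups. The difference was 0.064 (SE 0.106, limma adjusted p = 0.878), with -0.077 and 0.20 within the rows of the slide. Without mutant replicate 3 it was 0.0048, without control replicate 3 it was 0.018, and without mutant replicate 2 it was 0.13.

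All 12 receptors were tested, and their differences were small, from -0.16 to 0.28 with a median of 0.0668. Of these, 7 were higher and 5 lower, and 11 were above background on every array. Fzd9 had the largest difference (chromosome 5, 135724815 to 135724874, mm9), with -5.68, -5.38, -5.70 and -5.56 in controls 1 to 4 and -4.98, -5.59, -5.20 and -5.42 in mutants 1 to 4. Its probe was dim, above background in 3 of 4 controls, and mutant replicates 2 and 4 lay within the control range. The difference was 0.28 (SE 0.145, limma adjusted p = 0.821), and 0.18 without mutant replicate 1. It was 0.11 with normexp background correction, 0.071 in the authors' deposited values and 0.0998 with array weights. Fzd5, a receptor of the intestinal epithelium needed for Paneth cell maturation, stood at -1.31, -1.64, -1.73 and -1.40 in controls and at -0.88, -1.18, -1.37 and -1.60 in mutants (chromosome 1, 64779479 to 64779538, mm9). Mutant replicates 1 and 2 lay above all controls and the other 2 within their range. The difference was 0.26 (SE 0.169, limma adjusted p = 0.821), and 0.14 without mutant replicate 1. Within the rows of the slide it was 0.45 and 0.083.

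The remaining Frizzled receptors varied as much within a group as between groups. Fzd7, a receptor of intestinal stem cells, ran from -1.63 to -1.24 in controls and from -1.90 to -1.22 in mutants. Fzd2 ran from 0.73 to 1.22 in controls and was 1.48 in mutant replicate 1 and 0.94 to 1.01 in the other mutants. Fzd4, known as a receptor of blood vessel endothelium, ran from 1.63 to 1.87 in controls and was 2.13 in mutant replicate 1 and 1.80 to 1.86 in the others. In Fzd2 and Fzd4 the one array beyond the control range was mutant replicate 1. Fzd1 ran from 1.01 to 1.43 in controls and from 1.02 to 1.44 in mutants. Fzd6, a receptor of planar polarity signalling, ran from -2.01 to -1.69 in controls and from -1.91 to -1.70 in mutants. Fzd3, which acts in the same branch, ran from -3.001 to -2.51 and from -2.78 to -2.32. The groups overlapped in both genes. Fzd8 ran from -1.23 to -0.99 in controls and from -1.31 to -0.80 in mutants, and Fzd10 from -2.79 to -2.26 and from -2.76 to -2.37.

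Lrp5 and Lrp6 are the co-receptors that beta-catenin signalling needs and that Dkk1 blocks. Lrp5 ran from 0.89 to 1.04 in controls and from 0.80 to 1.33 in mutants. Lrp6 stood at 2.34, 2.30, 1.57 and 2.17 in controls 1 to 4 and at 2.05, 2.26, 1.49 and 1.94 in mutants 1 to 4. Replicate 3 was the low array of Lrp6 in each group.

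A further probe was available for 7 members, Fzd2, Fzd5, Fzd7, Lrp6, Wnt1, Wnt16 and Wnt8b. For the 4 receptors both probes were above background on all arrays and gave differences of the same sign. They were 0.15 and 0.095 for Fzd2, 0.26 and 0.21 for Fzd5, -0.12 and -0.017 for Fzd7, and -0.16 and -0.035 for Lrp6, with limma adjusted p over all probes of 0.828 to 0.973. The second probe of Wnt16 and both of Wnt8b were well above background on no array. Frizzled genes are alike in sequence, and the brighter Fzd2 probe (chr11:102467613-102467672, mm9, plus strand) overlaps in sequence with the dimmer Fzd7 probe (chr1:59541367-59541426, mm9, plus strand). Aligned, they share 42 of 50 bases, and the longest run they share, of 14 bases, is in capitals.
Fzd2 probe: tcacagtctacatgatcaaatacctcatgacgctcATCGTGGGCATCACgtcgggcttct
Fzd7 dimmer probe: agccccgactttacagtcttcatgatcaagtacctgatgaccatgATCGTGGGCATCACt
How much each of these probes binds the RNA of the other gene was not tested.

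**Figure D3:**
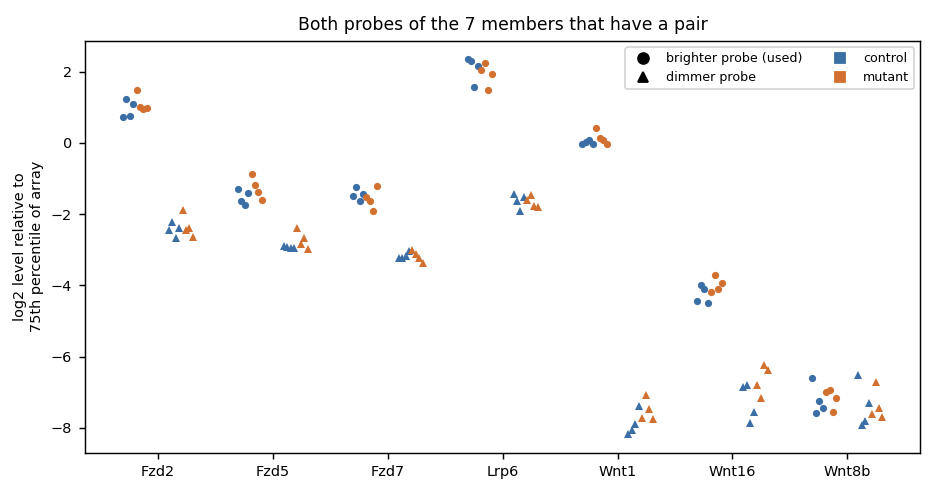
Level on each of the 8 arrays for both probes of the 7 members that have a pair, on a log2 scale where 0 is that array's 75th percentile; circles are the brighter probe and triangles the dimmer. Within each probe the controls (blue) and mutants (orange) overlap, and the dimmer probes of Wnt1 and Wnt16 were well above background on no array.

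R-spondins are secreted by stroma and act through Lgr4, Lgr5 and Lgr6. Rspo2 and Rspo3 leaned lower in mutants and Rspo1 higher, and the range of differences was -0.32 to 0.11. Rspo2 (chromosome 15, 42852727 to 42852786, mm9) stood at -3.55, -3.38, -3.65 and -3.44 in controls 1 to 4 and at -3.64, -4.12, -4.17 and -3.38 in mutants 1 to 4. Mutant replicates 2 and 3 lay below every control, while mutant replicates 1 and 4 did not. The difference was -0.32 (SE 0.181, limma adjusted p = 0.821), and -0.21 without mutant replicate 3. It was -0.10 with normexp, -0.12 in the authors' deposited values and -0.52 with array weights. Rspo3, the main R-spondin of the cells beneath the crypts (chromosome 10, 29172930 to 29172989, mm9), stood at -0.46, -0.38, -1.04 and -0.44 in controls and at -1.17, -0.71, -0.74 and -0.39 in mutants. Control replicate 3 lay between mutant replicate 1 and the other mutants. The difference was -0.17 (SE 0.199, limma adjusted p = 0.838). It was -0.32 without control replicate 3, -0.29 without mutant replicate 4, -0.10 without control replicate 2 and -0.032 without mutant replicate 1, and within the rows of the slide it was -0.52 and 0.18.

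Rspo1 stood at 0.71, 0.75, -0.07 and 0.80 in controls 1 to 4 and at 1.00, 0.66, 0.50 and 0.46 in mutants 1 to 4. Control replicate 3 was again the low one, and the other 3 controls lay inside the mutant range. Rspo4 was not tested. Its probe was above background in control replicate 1 alone, at -4.22 against -8.11 to -7.28 elsewhere. The pixels of that spot varied by 52.4%, with 8 of 36 marked as high outliers, against 12.8% to 23.1% in the other arrays.

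Of the Dkk antagonists, Dkk2 had the largest difference among genes that were lower (chromosome 3, 131842357 to 131842416, mm9). It stood at -1.92, -1.89, -2.83 and -2.10 in controls 1 to 4 and at -3.36, -2.21, -2.44 and -2.35 in mutants 1 to 4. All 4 mutants lay below controls 1, 2 and 4, and control replicate 3 lay between mutant replicate 1 and the other mutants. The difference was -0.41 (95% interval -1.08 to 0.26, SE 0.294, limma adjusted p = 0.821). It was -0.62 without control replicate 3 and -0.15 without mutant replicate 1, and within the rows of the slide it was -0.88 and 0.073. With array weights it was -0.20, and in the authors' deposited values -0.24. Dkk3, a divergent family member (chromosome 7, 119259556 to 119259615, mm9), stood at 1.73, 1.79, 1.52 and 1.78 in controls and at 2.08, 1.74, 1.5015 and 1.91 in mutants. Mutant replicates 1 and 4 lay above every control and mutant replicate 3 below every control, and the difference was 0.10 (SE 0.137, limma adjusted p = 0.848). It was 0.015 without mutant replicate 1, 0.043 without control replicate 3 and 0.21 without mutant replicate 3. Dkk1, the classic inhibitor of Lrp5 and Lrp6, spread from -5.79 to -4.43 in controls and from -5.47 to -4.56 in mutants and was above background on 3 arrays of each group. Dkk4, itself a Wnt target gene, was above background in control replicate 1 alone, with levels of -7.70 to -5.63 over all arrays.

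The proteins that bind Wnt ligands leaned lower, 4 of 5, with a median of -0.201 and a range of -0.25 to 0.10. Sfrp5, an Sfrp of the embryonic gut endoderm (chromosome 19, 42272509 to 42272568, mm9), stood at -1.73, -1.87, -2.08 and -1.65 in controls 1 to 4 and at -1.60, -2.25, -2.10 and -2.27 in mutants 1 to 4. Mutant replicates 2, 3 and 4 lay below every control, and mutant replicate 1 above every control. The difference was -0.22 (SE 0.168, limma adjusted p = 0.821), and -0.37 without mutant replicate 1, with the groups then apart and a limma adjusted p of 0.619. With array weights it was -0.40. Sfrp4 (chromosome 13, 19724488 to 19724547, mm9) stood at -5.15, -5.18, -5.23 and -5.93 in controls and at -5.59, -5.80, -5.89 and -5.19 in mutants, near background throughout. Replicate 4 was out of step with the other arrays of its group in both groups. The difference was -0.25 (SE 0.215, limma adjusted p = 0.821), and -0.43 without control replicate 4, -0.39 without mutant replicate 4 and -0.16 without mutant replicate 3. It turned to 0.014 with another background correction, to 0.019 in the authors' deposited values, and to 0.039 in the second row of the slide.

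Sfrp1 and Sfrp2, which with Sfrp5 are needed for the embryonic gut to lengthen, overlapped between groups. Sfrp1 stood at 0.46, 0.93, 0.69 and 0.71 in controls 1 to 4 and at 0.61, 0.27, 0.12 and 0.99 in mutants 1 to 4. Sfrp2 stood at -1.08, -0.86, -1.92 and -0.83 in controls and at -0.78, -1.25, -0.99 and -1.26 in mutants. Mutants held both the highest and the lowest Sfrp1 values, and the lowest Sfrp2 value was that of control replicate 3. Wif1 ran from -4.59 to -3.96 in controls and from -4.63 to -3.64 in mutants.

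**Figure D4:**
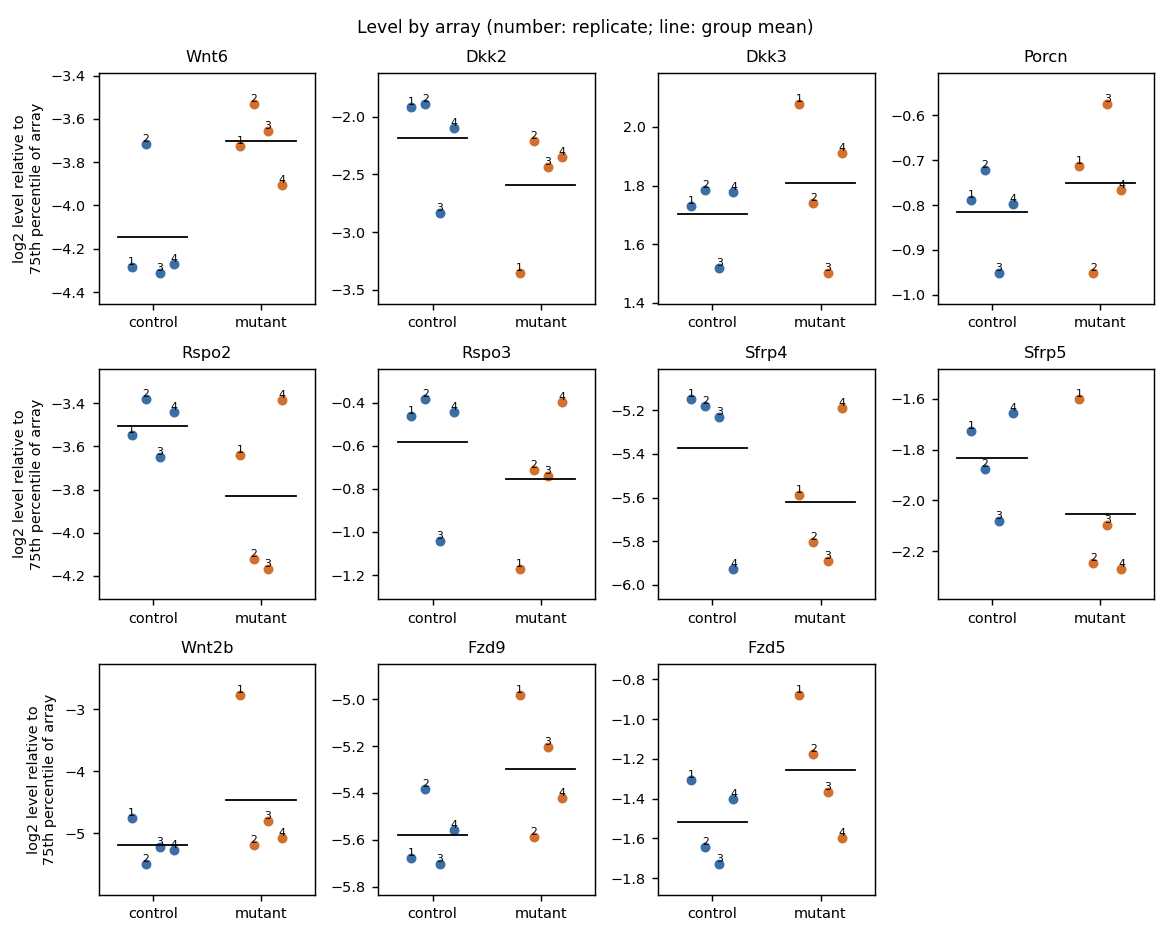
Level on each array of the 11 members described with a test, on a log2 scale where 0 is that array's 75th percentile; numbers give the replicate and lines the group mean. In each panel at least 1 array of one group lies within the range of the other, as control replicate 2 does for Wnt6, or, for Sfrp5, the controls lie between mutant replicate 1 and the other mutants.

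A pair of arrays set many of the members' extremes. Mutant replicate 1 was the highest of the 8 arrays for 17 of the 34 tested members, beside 45.6% of all genes. It was the lowest for 2 of 34, Dkk2 and Rspo3, beside 21.3% of all genes. Control replicate 3 was the lowest for 13 of 34, beside 11.8% of all genes. These 13 were Wnt5a, Wnt5b, Wnt6, Wnt9a, Wnt11, Fzd1, Fzd3, Fzd5, Fzd6, Fzd9, Porcn, Rspo1 and Sfrp2. That array was also the lowest of the 8 in the mean level of smooth muscle markers (2.87 against 3.27 to 3.71), of mesenchyme markers (2.08 against 2.27 to 2.47) and of enteric neuron and glia markers (-0.51 against -0.32 to -0.044). The part of tissue makeup in the members' values was not tested. Without control replicate 3 the median difference of the members was 0.0029, beside 0.0276 over all genes. Without mutant replicate 1 it was -0.0047, beside 0.0017 over all genes.

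Apart from the endocrine list, limma called no cell type marker, and at an unadjusted p under 0.05 there were 2 mesenchyme and 7 pancreas markers. Intestinal epithelium markers, 12 of 12 tested, had a median difference of 0.0341 and a mean level of 6.06 to 6.17 in controls and 6.02 to 6.34 in mutants. For mesenchyme and fibroblast markers, 12 of 12 tested, the median was 0.0768, with 8 higher and 4 lower. Among these, the groups did not overlap for Foxl1, a gene of the Wnt-secreting cells beneath the epithelium, and for Twist1. Foxl1 stood at -0.33, -0.12, -0.094 and -0.22 in controls 1 to 4 and at 0.24, -0.083, 0.097 and 0.00 in mutants 1 to 4, and its mutants were higher by 0.25 (SE 0.103, limma adjusted p = 0.821). Twist1 stood at -3.92, -4.55, -4.94 and -4.05 in controls and at -3.77, -3.77, -3.86 and -3.51 in mutants, which were higher by 0.64 (SE 0.219, limma adjusted p = 0.821), by 0.33 with normexp and by 0.28 in the authors' deposited values. The lowest mutant of either gene lay just above the highest control. Smooth muscle markers were higher in 10 of 10 (median 0.204) and endothelium markers in 8 of 8 (median 0.127), where 57.1% of all genes were higher. Their mean levels were 2.87 to 3.42 and 0.63 to 0.75 in controls and 3.27 to 3.71 and 0.69 to 1.07 in mutants. For smooth muscle, all arrays but control replicate 3 (2.87) and mutant replicate 1 (3.71) lay at 3.27 to 3.42. For endothelium, mutant replicate 1 was at 1.07 and the other mutants at 0.69 to 0.78, overlapping the controls. Enteric neuron and glia markers (10 tested, median 0.0992), blood and immune markers (8, median 0.0049), Paneth and goblet markers (10, median 0.0277) and stomach markers (4 of 9 tested, median 0.119) had no gene whose groups were apart. Mutant replicate 3 did stand apart in the stomach list, with a mean level of -2.34 against -4.37 to -3.66 in the other arrays. In that array Tff2 stood at 2.89, against -4.64 to -2.94 elsewhere, and Tff1 was well above background there alone, at -0.17. The part of such RNA in the members' values was not tested.

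Pancreas markers stood higher in mutants, with a mean level of -3.93 to -3.04 in controls and -2.50 to -1.11 in mutants. Of the 8 tested, 6 were higher and 2 lower with a median of 1.15, and Prss2 and Pnlip were not tested. Amy2a5 and Cela2a, which encode digestive enzymes of the exocrine pancreas, had groups that did not overlap. The part of such tissue in the members' values was not tested.

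The other genes of the pathway were read from lists of 76 genes, of which 75 were on the array and 72 were tested. By limma 0 of them were called, 2 had an unadjusted p under 0.05 (5.33% of all genes did), and 4 had groups that did not overlap (4.67% of all genes). These counts are near or below what the shares of all genes would give for 72 genes, and the genes are described as values. Of the 72, 50 were higher and 22 lower, where 57.1% of all genes were higher. The median was 0.0585, beside 0.0305 over all genes, and the range was -0.50 to 0.57. The highest value was that of Musk (SE 1.29), which was well above background on 5 arrays. By list, the median was 0.0607 for ligand secretion and other extracellular modulators (8 higher, 3 lower), 0.11 for co-receptors and receptor turnover (8 and 3), and 0.0272 for the intracellular beta-catenin pathway (16 and 11). It was 0.072 for target genes of the intestinal epithelium (14 and 3) and 0.0542 for the planar polarity branch (9 and 5). The mean level of the target list was -0.297 to -0.257 in controls and 0.053, -0.36, -0.43 and -0.12 in mutants 1 to 4. Mutant replicates 2 and 3 thus lay below every control and mutant replicates 1 and 4 above. Sost, Cer1 and Draxin were not well above background on enough arrays.

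Both genes with an unadjusted p under 0.05 belong to planar polarity, the beta-catenin-independent branch that orients cells within an epithelium. Celsr1, an adhesion receptor of that system, stood at -0.75, -0.71, -0.89 and -0.77 in controls 1 to 4 and at -0.067, -0.27, -0.23 and -0.41 in mutants 1 to 4. Every mutant lay above every control, and the difference was 0.54 (SE 0.0992, limma adjusted p = 0.240). With arrays weighted by their quality Celsr1 passed, at an adjusted limma p of 0.0403, and over all alternatives the adjusted limma p ran from 0.0403 to 0.814. Vangl2, its partner at the membrane, stood at -1.18, -0.74, -0.82 and -0.86 in controls and at -0.14, -0.54, -0.68 and -0.64 in mutants. The groups did not overlap, by a narrow gap, and the difference was 0.40 (SE 0.150, limma adjusted p = 0.821), with 0.62 and 0.18 within the rows of the slide.

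For 2 more genes the groups did not overlap. Ephb3, a Wnt target that positions cells along the crypt, stood at 4.79, 4.84, 4.83 and 4.70 in controls 1 to 4 and at 5.55, 5.09, 4.85 and 4.97 in mutants 1 to 4. The difference was 0.33 (SE 0.150, limma adjusted p = 0.821), with mutant replicate 3 just above the highest control. It was 0.18 without mutant replicate 1, and 0.51 and 0.14 within the rows of the slide. Tcf7, a transcription factor of the pathway that is itself a target, stood at -2.77, -2.63, -2.71 and -2.85 in controls and at -2.85, -2.93, -3.10 and -2.91 in mutants. The highest mutant lay just below the lowest control, and the difference was -0.21 (SE 0.0941, limma adjusted p = 0.821), and -0.12 with normexp.

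**Figure D5:**
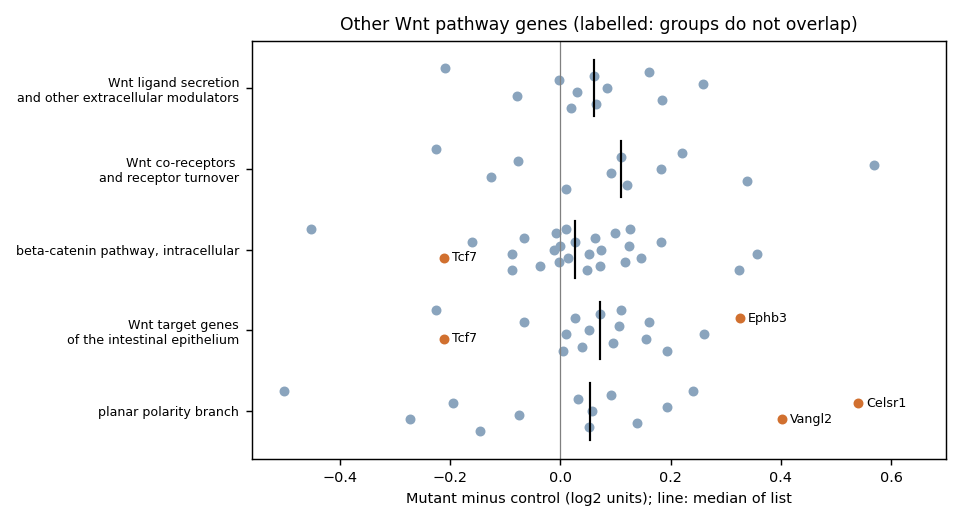
Difference between mutant and control, in log2 units, for the tested genes of 5 lists of the Wnt pathway outside the members; each point is a gene, the black line is the list's median, and Tcf7 is drawn in both lists that hold it. Points in orange are genes whose groups do not overlap, Celsr1, Vangl2 and Ephb3 higher and Tcf7 lower, none of which passed the test.

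The upstream sequence of the members was on the median richer in CpG pairs than that of other genes. RefSeq promoters (GRCm38.p6) were matched for 28 of the 45 genes, 31 promoters in all. In the 250 bases before the start, GC content had a median of 68.0% in members and 52.4% over 32851 promoters, and CpG pairs a median of 22 and 6. The members ranged from 48.4% to 87.6% GC and from 4 to 48 CpG pairs, and some, such as Wnt8b with 5 pairs and Dkk1 with 6, were near the median of all promoters. The median was 22 CpG pairs both for members that were tested and for those that were not. Wnt6, the member nearest the threshold, is shown as an example, at chr1:74771642-74771891 on the plus strand, with its 28 CpG pairs in capitals and a GC content of 79.6%.
Wnt6 upstream: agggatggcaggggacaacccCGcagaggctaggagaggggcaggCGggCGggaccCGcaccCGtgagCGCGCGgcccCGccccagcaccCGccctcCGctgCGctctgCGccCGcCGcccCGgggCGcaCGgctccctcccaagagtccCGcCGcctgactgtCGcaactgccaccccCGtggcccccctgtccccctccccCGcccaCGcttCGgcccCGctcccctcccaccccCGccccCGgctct
The same windows were searched on both strands for GTTGCC, the half-site that RFX factors bind, and for CTTTGAA and CTTTGAT, the site of the Tcf and Lef factors of the pathway in 2 spellings that cannot fall on the same bases. GTTGCC was in 0 of 31 member promoters and in 10.4% of all promoters. CTTTGAA was in the Dkk1 promoter, beside 4.46% of all, and CTTTGAT in those of Wnt11 and Wnt5b, beside 3.21%. These are matches of letters in a short window and do not show binding or its absence.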

How the data were processed

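Per the labels' protocols, 100 ng of TRI-reagent total RNA was amplified and labelled with cyanine 3. Per the file headers, the authors scanned array design 028005 and extracted spots with Feature Extraction 10.10.1.1, which gave background-corrected, detrended linear intensity values, not normalised between arrays. Probe coordinates are those of the files (mm9). The authors also deposited a table of intensity values, with its processing not given in the sources used here. Its columns share 1 median (123.313), match the rank order of each array's own median pixel intensity (rank correlation 0.999967 to 0.999984, at most 0.974 with another array), and lack 7 of 62976 spots. It was used as an alternative, and its scaling beyond that common median is not known.

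Outlier spots (117 to 157 per array) and control spots were left out of the 59305 other spots, and none of the latter was saturated. Spots of each of 55681 probes were averaged. Levels are log2 processed intensity minus the log2 of the array's 75th percentile. A gene was represented by its brightest probe (10367 genes had several) and tested if well above background on at least 4 of 8 arrays. The test was limma's two-sided moderated test without covariates (version 3.58.1, R 4.3.3; lmFit and eBayes). Its p-values were adjusted by Benjamini and Hochberg's method over 25354 genes, with a threshold of 0.05, and the fit was tested on simulated data. No fold is given against a group below background. All arrays lay on 1 slide read in 1 scan, so slide and scan could not form a batch. Each slide row held 2 arrays of each group, and differences were also taken within rows.

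Members and lists were chosen with earlier results of these data known. Values by array are given for members with an unadjusted p under 0.05 or groups that do not overlap, and for the pair with the largest difference in each role. Other members with values by array were chosen after their values were seen. Arrays are replicates by the labels, which number the animals and say no more, so p-values measure the spread between these samples. The number of arrays limits the precision. Same-numbered control and mutant arrays did not deviate together (correlations -0.0923, 0.0571, -0.0708 and 0.0912), so no pairing was used. Alternatives were other scalings, background corrections, filters, blocks, array weights and leaving out each array.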

Additional observations from a re-analysis of the deposited data

Results flagged for a closer look

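In 10 of 102 groups of 4 arrays, 1 array lay far from the other 3 by Dixon's test, where chance at 1 in 20 gives about 5.1. The groups share the same 8 arrays and are not independent, and the share over all genes was not taken. They were those of the 45 members and of Tcf7, Ephb3, Vangl2, Celsr1, Foxl1 and Twist1, so most were groups of members, as were all 10. Mutant replicate 1 was that array in 4 of them. It stood at 1.48 for Fzd2 (0.94 to 1.01 in the other mutants), at -1.99 for Wnt2 (-8.32 to -7.55), at -2.77 for Wnt2b (-5.18 to -4.80) and at -0.20 for Wnt5b (-0.78 to -0.69). Control replicate 3 was that array in 3, at -0.070 for Rspo1 (0.71 to 0.80 in the other controls), at -1.04 for Rspo3 (-0.46 to -0.38) and at -1.96 for Wnt9a (-1.41 to -1.38). The other three were Wnt6 in control replicate 2, at -3.71 (-4.31 to -4.27), Rspo4 in control replicate 1, at -4.22 (-7.74 to -7.28), and Sfrp4 in control replicate 4, at -5.93 (-5.23 to -5.15).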

How the results depend on the processing

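No member was called under any alternative fitted across all genes, and the lowest adjusted limma p of a member was 0.273, for Sfrp5 with array weights. The count of genes called in all was 27 with normexp background correction, 7 with the replicate block, 42 with array weights and 10 to 22 when 1 array was left out. Same-numbered arrays do not pair by the labels or by their deviations, and the replicate block changed no member's call. Members whose groups did not overlap numbered 1 (Wnt11) with normexp and 0 to 3 when 1 array was left out: 3 without control replicate 2 (Wnt3, Wnt6, Wnt11), and 1 each without control replicate 1 (Wnt2b), control replicate 3 (Dkk2), mutant replicate 1 (Sfrp5) and mutant replicate 4 (Wnt1). Over all genes that share was 4.45% with normexp, and 6.95%, 6.8%, 8.29%, 8% and 10.5% without those arrays, so the members' counts are not set apart from it. Of other pathway genes, 1 (Celsr1, difference 0.49) passed with array weights, where the weight of mutant replicate 1 was 0.117. Directions were followed only for the members described with a test. Among these they turned for Sfrp4 (0.014 with normexp, 0.019 in the deposited values, 0.039 within slide row 2) and Dkk3 (-0.015 with array weights). They also turned for Porcn (-0.020 with array weights, -0.077 within slide row 1), Dkk2 (0.073 within slide row 2) and Rspo3 (0.18 within slide row 2). The within-row values were added after seeing the data, and the cause was not tested. The median difference of the members ran from -0.0415 (array weights) to 0.106 (without mutant replicate 2), beside 0.0036 and 0.0408 over all genes. With array weights 11 of 34 members were higher, against 20 in the main fit, so members not described with a test turned there as well. Signals near background limit Wnt2b, Wnt3, Fzd9, Dkk1 and Sfrp4, which were not above it on every array.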

Other observations

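Hddc3, a gene outside the pathway on chromosome 7, chosen after its values were seen, was bright on the same 3 arrays as Wnt10a. It stood at 0.44 and 0.60 in control replicates 2 and 3 and at 0.48 in mutant replicate 4, and at -2.87 to -2.13 in the other 5 arrays, all above background. Genes at least 16-fold brighter on 1 array than on any other numbered 26 in mutant replicate 1, 30 in control replicate 2, 20 in mutant replicate 2 and 5 to 12 in the other arrays, of 36136 genes. Wnt2 was 1 of the 26 in mutant replicate 1, and since it was not well above background on the other arrays, its level there is only a bound.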
